A study of Mus musculus with 8 samples.

Results

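Lone triplets of a thymine pair and 1 cytosine are array probes on which a single pyrimidine triplet, TTC or CTT, is the only place where UV light can join neighbouring pyrimidines. Their members were found by sequence alone. A printed sequence had to end in the commonest last 24 bases, and its pyrimidine runs (stretches of at least 2 pyrimidines) were counted on the printed strand and on the complement strand. Members had exactly 1 run over both strands, of 3 bases, with 2 adjacent thymines and the cytosine first or last. Of 122095 different printed sequences, 708 were members. TTC lay on the printed strand of 168 members and on the complement strand of 190, and CTT on the printed strand of 166 and on the complement strand of 184. No intensity was used to choose them.

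The series stained a DNA array of universal design with mouse antibodies against 2 kinds of UV lesion, to measure the signal of short sequences. An antibody against cyclobutane pyrimidine dimers (CPD) was used at a dilution of 1:400 and an antibody against 6-4 photoproducts (6-4PP) at 1:80. Each was applied to 2 UV-irradiated arrays and to 2 arrays without UV, which gives 4 groups of 2 arrays, numbered 1 and 2 in the labels. All arrays carried the same printed sequences. The labels do not say whether the 2 arrays of a group are separate irradiations, so every p-value measures only the spread between these arrays, and their small number limits the precision. Neither the UV dose nor how the complement strand was synthesised is stated in the labels.

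UV light links adjacent pyrimidines of 1 strand in several ways. In a CPD a small carbon ring joins the pair, and in a 6-4PP a bond runs from a ring position of the first base to one of the second. CPDs are known to form most readily at TT, and 6-4PPs at TC and TT. TTC holds a TT step followed by a TC step, and CTT holds a CT step followed by a TT step, so the same bases in a different order offer different pairs.

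Each probe has 60 bases, of which the first 25 vary. The members share the last 35, which hold no pyrimidine pair on either strand and are the same in every line that follows.
Shared end: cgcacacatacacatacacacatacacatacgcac
The triplet started at position 3 to 20 from the 5′ end (median 10), and in 643 members at position 7 to 13. The first 6 bases were gtatgc in 644 members, so the members share much of their sequence and are not independent of each other. Flanking bases are read on the strand that holds the triplet and can only be A or G, because a pyrimidine there would lengthen the run. The next lines show pairs of members that differ at 1 flanking base or in the triplet alone, since the results turn on these bases. Of each kind of pair, the one shown lay nearest the median difference on the UV arrays of the 6-4PP antibody. Capitals mark the triplet, with the flanking base where that base differs. A TTC on the complement strand is printed as GAA, and a CTT on the complement strand as AAG.
TTC after A: gtatgcatatATTCgtatgtatgca
TTC after G: gtatgcatatGTTCgtatgtatgca
CTT after A: gtatgcacACTTatatatgtatgca
CTT after G: gtatgcacGCTTatatatgtatgca
Complement TTC after A: gtatgcacGAATacgtatgtatgca
Complement TTC after G: gtatgcacGAACacgtatgtatgca
Complement CTT after A: gtatgcatAAGTgcgtatgtatgca
Complement CTT after G: gtatgcatAAGCgcgtatgtatgca
TTC, matched with the next line: gtatgcacaTTCacgtatgtatgca
CTT, matched with the line before: gtatgcacaCTTacgtatgtatgca
Complement TTC, matched with the next line: gtatgcacacgtGAAtatgtatgca
Complement CTT, matched with the line before: gtatgcacacgtAAGtatgtatgca
The other 3′ flank of TTC is shown where it is described.

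Intensities are on a linear scale and contain background that was not subtracted. As a reference, 550 probes hold no dipyrimidine step (TT, TC, CT or CC) on either strand. Their median intensity was 1219 and 1048 on arrays 1 and 2 of CPD without UV, and 1617 and 1603 with UV. With the 6-4PP antibody it was 1497 and 1246 without UV, and 1954 and 1952 with UV. A level in the following text is the log2 intensity of a probe minus the median of these 550 probes on the same array. A class level is the median over the probes of a class, and a UV effect is the mean level on the 2 UV arrays minus the mean level on the 2 arrays without UV. UV effects were tested with limma, with Benjamini-Hochberg adjusted p-values, and a value passed below 0.05.

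The replicates had limits that touch single probes more than classes. Of the members, 456 were printed on 1 spot, 252 on 2 or more and none on more than 20. Over the members, the 2 UV arrays correlated with Pearson's r of 0.883 for CPD and 0.926 for 6-4PP, as a description over 708 probes, and the 2 arrays without UV hardly at all. Arrays of the same number and the same UV condition deviated together across the antibodies. Over all 122095 sequences, the differences between arrays 1 and 2 correlated with r = 0.707 between the UV groups of the antibodies and r = 0.765 between the groups without UV. The labels do not say whether such arrays are 1 slide stained with both antibodies. On the UV arrays 14 members differed between arrays 1 and 2 by over 1 on the log2 scale with at least 1 antibody. This was seen in 9 members with both antibodies, each time with the same array number brighter, and 13 of the 14 were printed once. Results without those 14 are given where they differ.

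UV raised the staining of all 4 classes with both antibodies. The TTC class on the printed strand had a median intensity of 1218 and 1051 on the CPD arrays without UV and of 7482 and 7225 with UV. With the 6-4PP antibody its median was 1523 and 1264 without UV and 8647 and 8680 with UV. The UV arrays lay above the arrays without UV by a wide margin, and the UV effect was 2.19 (SE 0.033) for CPD and 2.13 (SE 0.033) for 6-4PP. These SEs do not describe the spread among probes. Levels of single probes on the 6-4PP UV arrays had quartiles of 0.50 and 2.53, and split by the base before the triplet, as described below. The class median therefore depends on the mix of these bases. The CTT class on the printed strand rose from 1221 and 1031 to 6323 and 5621 with CPD. With 6-4PP it rose from 1517 and 1243 to 10655 and 10739, the brightest of the 4 classes. Its UV effect was 1.90 (SE 0.051) and 2.45 (SE 0.051).

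The complement classes rose less. TTC on the complement strand went from 1204 and 1030 to 2397 and 2205 with CPD, and from 1480 and 1217 to 3126 and 3152 with 6-4PP. CTT on the complement strand went from 1201 and 1037 to 2850 and 2585 with CPD, and from 1479 and 1216 to 4294 and 4181 with 6-4PP. Their UV effects were 0.54 (SE 0.042) and 0.71 (SE 0.042) for TTC and 0.77 (SE 0.046) and 1.14 (SE 0.046) for CTT, CPD first. In limma's fit of 248 classes of single-run probes, the adjusted p-values of the 4 classes were at most 3.2e-06 for CPD and 2.5e-07 for 6-4PP. Of those 248 classes, 79.0% rose with CPD and 98.8% with 6-4PP, so a rise is no special mark of these triplets. Without UV, the class levels of the triplets lay between -0.03 and 0.02, at the level of the probes without a step. The median UV effect over the members was 1.03 for CPD and 1.20 for 6-4PP, beside 1.11 and 1.71 over all sequences, most of which hold several steps. With levels set against the median of all sequences, UV effects therefore shift down by amounts close to 1.11 and 1.71, and the complement classes then had negative UV effects. They were -0.61 and -1.05 for TTC and -0.37 and -0.62 for CTT, CPD first.

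Counted probe by probe, 609 of 708 members (86.0%) passed the threshold as higher with CPD, beside 70.5% of all sequences. With 6-4PP 597 members (84.3%) did, beside 86.0% of all sequences. Centred on the median of all sequences the counts fell to 246 and 208. The CPD count included 162 of 168 TTC and 164 of 166 CTT probes on the printed strand, and 123 of 190 TTC and 160 of 184 CTT probes on the complement strand. With 6-4PP the counts were 141, 164, 121 and 171 in the same order. No member (0 of 708) passed as lower with CPD, beside 0.473% of all sequences. With 6-4PP 2 members did, beside 0.203% of all sequences. They are named because they are the only ones, and were picked out after their values were seen.
Lower with 6-4PP, first: gtatgcGAAcgtatgtatgtatgca
Lower with 6-4PP, second: gtatgcGAAcgtgtgtatgtatgca
Both hold a complement TTC with G on both sides, in capitals, and both are printed once. On the 6-4PP arrays the first read 1783 and 1380 without UV and 1745 and 1709 with UV, a UV effect of -0.38 (adjusted p 0.0107, limma). The second read 1460 and 1176 without UV and 1598 and 1442 with UV, a UV effect of -0.30 (adjusted p 0.0219, limma). The fall is relative to the probes without a step, whose own intensity rose with UV.

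The base before TTC set apart bright and dim probes. In the first pair of lines, the probe with A before TTC read 1491 and 1196 on the 6-4PP arrays without UV and 9338 and 9673 with UV. The probe with G there read 1557 and 1352 without UV and 2474 and 2303 with UV. On the CPD arrays the first read 10005 and 9496 with UV and the second 3329 and 3166, against 1250 and 1010, and 1114 and 1105, without UV. A change of 1 base thus went with a large fall of the 6-4PP signal and a smaller one of the CPD signal.

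The whole class split in the same way. The 95 printed TTC probes after A had median UV intensities of 10790 and 11272 with 6-4PP, and the 73 after G had 2667 and 2746. These are 5.65-fold and 1.39-fold over the probes without a step. With CPD the medians were 9388 and 8637 after A and 4207 and 3964 after G, or 5.59-fold and 2.54-fold. The UV effect was larger after A than after G by 2.02 (SE 0.022) for 6-4PP and by 1.14 (SE 0.022) for CPD. Both passed limma's test (adjusted p 1.4e-12 and 5.8e-11). The difference was larger for 6-4PP than for CPD by 0.88 (SE 0.031, adjusted p 6.5e-09). Under quantile normalization, which gives all 8 arrays 1 distribution, both flank differences kept their call with smaller values, 1.08 and 0.53.

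Single-base pairs of members showed the same order. Of 64 pairs that differ only in the base before a printed TTC, 62 were brighter with A on both UV arrays of 6-4PP and 62 on both UV arrays of CPD. Without UV, 20 and 18 of the 64 pairs were. The median difference of a pair was 1.99 on the 6-4PP UV arrays (lower and upper quartile 1.77 and 2.22) and 1.20 on the CPD UV arrays (0.92 and 1.33).

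On the complement strand the same split appeared at a lower level. The complement TTC pair in the lines read 3740 and 3889 after A and 2599 and 2100 after G on the 6-4PP UV arrays. On CPD UV arrays it read 3054 and 2756 after A and 2072 and 1929 after G. Without UV, the probe after A was raised on array 1 of each antibody (1975 with CPD and 4984 with 6-4PP, against 1013 and 1210 on array 2), so its UV effect is uncertain. Over the class, the UV effect was larger after A by 0.78 (SE 0.039) for 6-4PP and by 0.44 (SE 0.039) for CPD, with adjusted p-values of 4.8e-08 and 3.5e-06 in limma. The 71 complement TTC probes after G had median UV intensities of 1992 and 2100 with 6-4PP, 1.05-fold over the probes without a step, and 1911 and 1839 with CPD, 1.16-fold. Of these 71, 16 (22.5%) passed the threshold as higher with 6-4PP and 23 (32.4%) with CPD. Of the 119 after A, 105 (88.2%) and 100 (84.0%) did. Over all sequences 86.0% and 70.5% did, so the 6-4PP share after A was near that of all sequences.

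For CTT, whose first base is the cytosine, the base before the triplet mattered less. The CTT pair in the lines read 14613 and 12424 after A and 9350 and 10914 after G on the 6-4PP UV arrays. On the CPD UV arrays it read 6539 and 5864 after A and 6610 and 7825 after G, so this pair did not favour A with CPD. Over the printed class, the UV effect was larger after A by 0.33 (SE 0.020) for 6-4PP and by 0.17 (SE 0.020) for CPD (adjusted p 1.5e-07 and 2.2e-05, limma). Under quantile normalization the 6-4PP difference was 0.04 and no longer passed. The complement CTT pair read 4674 and 4756 after A and 3951 and 4216 after G on the 6-4PP UV arrays, and 2909 and 2830 against 2766 and 2954 on the CPD UV arrays. Over the complement class the differences were 0.28 (SE 0.029) for 6-4PP and 0.10 (SE 0.029) for CPD. The CPD value of 0.10 did not pass among single-base pairs (0.03), under quantile normalization (0.10) or without array 2 of CPD without UV (0.09).

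The contrast between TTC and CTT was itself tested. The A against G difference before a printed triplet was larger in TTC than in CTT by 1.69 (SE 0.025) for 6-4PP and by 0.96 (SE 0.025) for CPD. The adjusted p-values were 7.8e-14 and 7.6e-12 in limma, from a table extended by 24 differences within 1 flank that were added after the data had been seen. On the complement strand the same contrast was 0.50 (SE 0.030) and 0.35 (SE 0.030). In TTC the base before the triplet touches the TT step directly, and in CTT a cytosine lies between them.

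The base after the triplet was examined in the same way. After a printed CTT, where it touches the TT step, A went with more signal than G. The 75 probes with A after CTT had median UV intensities of 7699 and 7240 with CPD and 12953 and 13221 with 6-4PP. The 91 with G there had 5268 and 4729, and 9385 and 9755. The UV effect was larger with A by 0.56 (SE 0.026) for CPD and by 0.43 (SE 0.026) for 6-4PP (adjusted p 3.9e-08 and 2.0e-07, limma). Of 64 single-base pairs, 58 were brighter with A on both CPD UV arrays and 57 on both 6-4PP UV arrays. Under quantile normalization the CPD difference was 0.10 and did not pass, and the 6-4PP difference was 0.15. On the complement strand, the difference was 0.15 (SE 0.027) for CPD and 0.27 (SE 0.027) for 6-4PP, and neither passed under quantile normalization (0.17 and 0.11).

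After a printed TTC, where it touches the cytosine, the base made little difference over the class. These lines show such a pair, with the flank in capitals. The probe with G is the one shown before as TTC after A.
TTC before A: gtatgcatataTTCAtatgtatgca
TTC before G: gtatgcatataTTCGtatgtatgca
The probe with A read 9754 and 11122 with CPD and UV, and 9257 and 10206 with 6-4PP and UV. The one with G read 10005 and 9496, and 9338 and 9673. Over the class the difference of UV effects was 0.06 (SE 0.044) for CPD and -0.02 (SE 0.044) for 6-4PP, and neither passed (adjusted p 0.239 and 0.709, limma). These medians mix probes with A and with G before the triplet. Within the same base before the triplet the CPD difference was 0.13, and among single-base pairs it was 0.15, and both passed. Of 64 such printed pairs, 37 were brighter with A on both CPD UV arrays and 8 dimmer. With A and with G after the triplet, the CPD effects were 1.47 and 1.21 in TTC after G, and 2.48 and 2.47 in TTC after A. The 6-4PP difference changed sign among settings and did not pass within the same base or among single-base pairs. On the complement strand it was -0.01 (SE 0.029) for CPD and -0.02 (SE 0.029) for 6-4PP, and neither passed. Within the same base before the triplet the complement CPD difference was -0.079, and among single-base pairs it was -0.074, and both passed with A dimmer. Of 64 such complement pairs, 37 were dimmer with A on both CPD UV arrays and 10 brighter. The contrast between the triplets was tested here too, in a second table extended after the data had been seen. The A against G difference after a printed triplet was smaller in TTC than in CTT, by a log2 difference of -0.50 (SE 0.062) for CPD and -0.44 (SE 0.062) for 6-4PP (adjusted p 5.3e-05 and 0.00012, limma). Under quantile normalization neither passed (-0.11 and -0.23). On the complement strand the contrast was -0.17 (SE 0.021) and -0.29 (SE 0.021), and both passed.

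Put together, the 2 flanks gave each class an order of 4 contexts. For 6-4PP the printed levels on UV arrays were highest in CTT with A on both sides (2.97 ± 0.11, SD, n = 2), at 7.82-fold over the probes without a step. CTT followed with G before and A after (2.47 ± 0.02), A before and G after (2.46 ± 0.01), and G on both sides (2.06 ± 0.08). The middle contexts differed by less than their spread. TTC after A stood at 2.48 ± 0.05 with A after it and 2.50 ± 0.04 with G after it. TTC after G stood at 0.50 ± 0.15 and 0.45 ± 0.01, and no CTT context came near so low a level. For CPD the order was led by TTC after A (2.50 ± 0.07 with A after it and 2.46 ± 0.09 with G after it). CTT between A and A stood at 2.25 ± 0.08, CTT between G and A at 2.14 ± 0.06, CTT between A and G at 1.77 ± 0.10, and CTT between G and G at 1.45 ± 0.08. TTC between G and A stood at 1.46 ± 0.01 and TTC between G and G at 1.23 ± 0.07. Neighbours such as CTT between G and G and TTC between G and A did not differ beyond their spread.

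Class and flanks together described most of the spread among members on UV arrays. Strand alone took up 64.1% ± 4.3 (SD, n = 2) of the variance of the levels with CPD and 38.7% ± 1.5 with 6-4PP. Class, which adds the place of the cytosine, took up 65.4% ± 4.5 and 53.2% ± 0.5. With the base before the triplet it was 79.4% ± 6.0 and 84.8% ± 2.8, and with both flanks 83.0% ± 5.5 and 87.3% ± 2.8. Without UV both flanks and class took up 1.9% and 1.7%. The place of the cytosine and the base before the triplet thus added much more for 6-4PP than for CPD, in values that are descriptive and were not tested. Within a context of fixed class and flanks the median SD among probes was 0.28 for each antibody.

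Whether TTC or CTT was brighter depended on the antibody and on the base before the triplet. Over the printed classes the UV effect of TTC was larger than that of CTT by 0.29 (SE 0.036) for CPD and smaller for 6-4PP, with a difference of -0.32 (SE 0.036). Both passed (adjusted p 4.0e-05 and 1.9e-05, limma). The CPD difference did not hold when the same flanks were compared (-0.0042) or under quantile normalization (0.04), and the 6-4PP difference was then -1.02 and -0.27. After A, TTC exceeded CTT by 0.50 (SE 0.029) with CPD, and the 6-4PP difference was -0.09 (SE 0.029). The latter passed (adjusted p 0.0128, limma), but not without array 1 of 6-4PP with UV or without either array of 6-4PP without UV, at -0.067, -0.093 and -0.085. It joined unlike contexts, since the 6-4PP effects of TTC and CTT were 2.44 and 2.92 between A and A, and 2.49 and 2.44 between A and G. After G, TTC was below CTT with both antibodies, by a log2 difference of -0.47 (SE 0.033) for CPD and -1.78 (SE 0.033) for 6-4PP. In the matched lines with A on both sides, TTC read 10001 and 9018 with CPD and UV, and CTT read 11489 and 9872, so this pair did not have the order of the classes with CPD. With 6-4PP and UV, TTC read 11306 and 13307 and CTT read 21149 and 21975.

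Pairs that differ in the triplet alone leaned clearly one way with 6-4PP and were nearly balanced with CPD. Of 151 printed pairs, 110 were dimmer as TTC on both 6-4PP UV arrays and 24 brighter, with a median difference of -0.81. With CPD 71 were brighter as TTC on both UV arrays and 59 dimmer, with a median of 0.10. Complement TTC was dimmer than CTT with both antibodies, with differences of -0.24 (SE 0.023) for CPD and -0.43 (SE 0.023) for 6-4PP in the class fit (adjusted p 8.0e-06 and 8.4e-08, limma). Of 170 complement pairs, 152 were dimmer as TTC on both 6-4PP UV arrays and 118 on both CPD UV arrays. The matched complement lines read 3643 and 3537 as TTC and 6136 and 5450 as CTT with 6-4PP and UV. With CPD and UV they read 2404 and 2297, and 2490 and 2546.

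The same triplet was brighter on the printed strand than on the complement strand. The UV effect was larger on the printed strand by 1.65 (SE 0.026) in TTC and by 1.13 (SE 0.025) in CTT with CPD. With 6-4PP the differences were 1.42 (SE 0.026) and 1.30 (SE 0.025). All 4 passed (adjusted p at most 1.3e-10, limma), and under quantile normalization they were 0.66, 0.50, 0.52 and 0.59 in that order and still passed. The values of TTC join unlike contexts. On the 6-4PP UV arrays TTC stood at 2.50 printed and 0.86 complement after A, but at 0.47 and 0.07 after G. On the CPD UV arrays it stood at 2.48 and 0.67 after A, and at 1.34 and 0.22 after G. These levels include background, and the 6-4PP levels after G lie near the probes without a step. Above those probes, printed and complement TTC stood at 8964 ± 380 and 1498 ± 122 (SD, n = 2) between A and A with 6-4PP. They stood at 816 ± 294.5 and 122 ± 71.8 between G and A, and at 719 ± 23.0 and 64.3 ± 45.3 between G and G. The smaller log2 gap after G thus does not show a smaller ratio of signal. The strand difference of TTC was larger for CPD than for 6-4PP by 0.24 (SE 0.037), and that of CTT was smaller for CPD by a log2 difference of -0.17 (SE 0.035). Neither of these differences between the antibodies passed under quantile normalization (0.14 and -0.08).

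Each triplet was next set against the lone steps it contains, which are runs of 2 bases on the same strand. Lone TT on the printed strand (466 probes) had a median of 9048 and 8153 with CPD and UV and of 7432 and 7863 with 6-4PP and UV. For CPD, the UV effect of TTC was below that of lone TT by a log2 difference of -0.24 (SE 0.036) and that of CTT by -0.53 (SE 0.027). For 6-4PP both were above it, TTC by 0.17 (SE 0.036) and CTT by 0.49 (SE 0.027). All 4 passed (adjusted p at most 0.0014, limma). Under quantile normalization TTC was 0.08 above lone TT with 6-4PP and no longer passed.

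The base before the run again mattered for these differences. After A, lone TT stood 6.77-fold over the probes without a step with CPD and 5.56-fold with 6-4PP, and after G 2.69-fold and 1.20-fold. Printed TTC minus lone TT with 6-4PP was 0.03 (SE 0.024) after A, which did not pass (adjusted p 0.241, limma), and 0.17 (SE 0.024) after G. With CPD it was -0.29 (SE 0.024) and -0.09 (SE 0.024). CTT minus lone TT with 6-4PP was 0.12 (SE 0.026) after A and 1.95 (SE 0.029) after G, and with CPD it was -0.79 (SE 0.026) and 0.37 (SE 0.029). A lone TT after G and a TTC after G were thus both dim with 6-4PP, while CTT after G was bright.

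Against the step that holds the cytosine, both triplets were brighter on the printed strand. Printed TTC exceeded lone TC by 2.04 (SE 0.021) with CPD, where lone TC stood only 1.10-fold over the probes without a step, and by 0.92 (SE 0.021) with 6-4PP, where lone TC stood at 2.33-fold. After G, where lone TC with 6-4PP stood at 1.15-fold, TTC exceeded it by 0.25 (SE 0.029). Printed CTT exceeded lone CT by 1.62 (SE 0.036) with CPD and 2.13 (SE 0.036) with 6-4PP. Lone CT stood at 1.21-fold and 1.25-fold. Complement TTC exceeded lone TC by 0.47 (SE 0.036) with CPD. With 6-4PP the difference was 0.10 (SE 0.036, adjusted p 0.0302, limma). It did not pass when the 14 members with unlike UV arrays were left out (0.08) or without array 2 of 6-4PP with UV (0.06), and it was -0.02 within the same flanks. Leaving out either array of 6-4PP without UV or of CPD without UV also ended the call, at 0.09 to 0.10. Complement TTC minus lone TT with 6-4PP was 0.03 (SE 0.026) and did not pass, but it joined both signs. After A it was -0.17 (SE 0.027, adjusted p 0.00011, limma), and after G 0.06 (SE 0.025, adjusted p 0.0318, limma). Complement TTC minus lone TT with CPD was -0.48 (SE 0.026). Complement CTT over all contexts stood below lone TT with CPD (-0.24, SE 0.021) and above it with 6-4PP (0.46, SE 0.021). The CPD value joined both signs, with -0.47 (SE 0.027) after A and 0.21 (SE 0.034) after G, and both passed. With 6-4PP the values were 0.24 (SE 0.027) after A and 0.98 (SE 0.034) after G. Complement CTT exceeded lone CT by 0.65 (SE 0.038) with CPD and 1.08 (SE 0.038) with 6-4PP.

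In intensity units, the signal of a triplet above the probes without a step was compared with the sum of its 2 lone steps, as a description without a test. Printed CTT stood 8744 ± 61.5 (SD, n = 2) above them with 6-4PP and UV. The lone CT step stood 488 ± 46.0 above them and the lone TT step 5695 ± 307, so the triplet held 1.42 ± 0.07 times the sum of its steps. With CPD it held 0.59 ± 0.01 times the sum. Complement CTT held 1.84 ± 0.01 times the sum with 6-4PP and 0.64 times with CPD. Printed TTC held 0.81 ± 0.03 times the sum with 6-4PP and 0.80 ± 0.05 times with CPD, and complement TTC 0.54 ± 0.05 and 0.41 ± 0.01. With steps of the same outer flank, the 6-4PP ratio of printed TTC was 0.72 ± 0.01 between A and A but 0.20 ± 0.07 between G and A and 0.28 ± 0.01 between G and G. Printed CTT exceeded the 6-4PP sum in each of its 4 contexts, from 1.10 ± 0.06 between G and A to 1.52 ± 0.03 between A and A. In all these sums the second step of each triplet pooled probes after A and after G. With 6-4PP and UV, printed lone TT had medians of 10652 and 11054 after A but 2328 and 2365 after G. With TT after A alone, the sums of printed CTT would be larger and its ratios smaller. Lone TT between A and A had medians of 13809 and 14227, beside 14489 and 16099 for CTT between A and A. CTT between G and A, at 10698 and 10873, was below that lone TT alone. Lone TT between A and G had 9223 and 9566, beside 10706 and 10803 for CTT between A and G. CTT between G and G, at 7846 and 8460, was below it. The excess of printed CTT over the sum after G thus rests on the pooled step. Complement lone TT after A had 4077 and 3986, beside 4294 and 4181 for complement CTT. The sums rest on intensities that increase with the amount of lesion in a way that was not tested for linearity.

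Against lone TTT, the triplet of thymines alone, the antibodies disagreed. Printed TTT had a median of 9604 and 8564 with CPD and UV and of 5410 and 5310 with 6-4PP and UV. For CPD, printed TTC was below TTT by a log2 difference of -0.30 (SE 0.036) and CTT by -0.59 (SE 0.023). For 6-4PP, TTC was above TTT by 0.69 (SE 0.036) and CTT by 1.01 (SE 0.023). The complement classes had the same signs, with -0.56 (SE 0.021) and -0.32 (SE 0.022) for CPD and 0.25 (SE 0.021) and 0.69 (SE 0.022) for 6-4PP. These 8 differences passed limma's test. Under quantile normalization the CPD difference of printed CTT was -0.19 and did not pass. The gain of TTC with 6-4PP depended on the base before it. On the 6-4PP UV arrays, printed TTC and TTT stood at 2.50 ± 0.05 and 1.91 ± 0.07 (SD, n = 2) after A, and at 0.47 ± 0.03 and 0.43 ± 0.04 after G. TTC minus TTT was 0.58 (SE 0.025) after A and passed, and 0.034 (SE 0.043) after G, which did not (adjusted p 0.486, limma). Printed CTT minus TTT was 0.67 (SE 0.035) after A and 1.81 (SE 0.026) after G, and both passed. With CPD the 4 differences were -0.34 and -0.60 for TTC and -0.83 and -0.13 for CTT, A before G, and all passed, the last not under quantile normalization (-0.057). Within the same flanks the 6-4PP difference of TTC was smaller, 0.31, and its CPD difference larger, -0.50.

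The UV effects of the 2 antibodies were compared directly, as CPD minus 6-4PP. Over printed TTC the difference was 0.06 (SE 0.047) and did not pass (adjusted p 0.247, limma), but it joined contexts that behaved differently. After G it was 0.99 (SE 0.089) with A after the triplet and 0.78 (SE 0.050) with G after it, and both passed. After A it was 0.04 (SE 0.058) and -0.02 (SE 0.060), and neither passed. In printed CTT the 4 contexts ranged from -0.66 to -0.33 and in complement CTT from -0.63 to -0.31, and all 8 passed. The class differences were -0.55 (SE 0.073) for printed CTT, -0.37 (SE 0.066) for complement CTT and -0.17 (SE 0.060, adjusted p 0.0239, limma) for complement TTC. The last no longer passed without array 2 of 6-4PP with or without UV or without either array of CPD without UV, at -0.17, -0.17, -0.17 and -0.18. It also joined contexts of both signs. After A, complement TTC stood at -0.19 with A after the triplet and -0.16 with G after it, and both passed. After G it was 0.08, which did not pass, and 0.17, which passed toward CPD (adjusted p 0.0095, limma). Of the 248 classes, 21.4% passed toward CPD and 62.1% toward 6-4PP. The sign of a class depends on the centring. Set against the median of all sequences, the differences were 0.69, 0.45, 0.08 and 0.25 for printed TTC, complement TTC, printed CTT and complement CTT. Differences between classes on 1 array are free of that choice, and TTC minus CTT on the printed strand was larger for CPD by 0.61 (SE 0.051, adjusted p 3.5e-06, limma). Under quantile normalization it was 0.30 and just missed the threshold.

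Probe by probe, 63 members passed toward CPD, beside 10.6% of all sequences, and 157 toward 6-4PP, beside 36.9%. The shares of the members, 8.9% and 22.2%, were thus below those of all sequences in both directions. Of the 63, 57 were printed TTC probes after G, which number 73 in all. Of the 157, 83 were printed CTT and 64 complement CTT. Centred on the median of all sequences the counts were 257 and 3, and under quantile normalization both were 0, so the direction of single probes rests on the reference chosen. The 157 members toward 6-4PP became 100 and 92 without array 1 or 2 of 6-4PP with UV, 73 and 84 without array 1 or 2 of CPD without UV, and 91 without array 2 of CPD with UV. With the replicate number as a block within the UV condition the counts were 78 and 210. Over the probes of a class, the UV levels of the antibodies correlated with Pearson's r of 0.953 in printed TTC (168 probes), 0.838 in complement TTC (190), 0.839 in printed CTT (166) and 0.772 in complement CTT (184). The arrays behind these values share numbers and printed sequences.

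Place on the probe went with the level, most in complement CTT. Spearman's rho between the start of the triplet and the UV level was 0.437 in complement TTC and 0.591 in complement CTT with CPD, and 0.468 and 0.606 with 6-4PP. In printed TTC and CTT it was -0.121 and 0.075 with CPD, and -0.126 and 0.027 with 6-4PP. Contexts were not spread evenly over the probe. With each level taken from the median of its own context, rho was 0.324 and 0.305 in complement TTC, 0.464 and 0.440 in complement CTT, 0.122 and 0.076 in printed TTC and 0.290 and 0.278 in printed CTT, CPD first. These are descriptions across 166 to 190 probes that share bases. Set against the median of their own context, the 81 complement members that start at position 3 to 7 lay at -0.11 with CPD and -0.08 with 6-4PP, and the 90 that start at position 12 to 20 lay at 0.08 and 0.10. The 13 printed members that start at position 3 to 7 lay at -0.33 and -0.29, and the later printed members within 0.03 of 0. A pair of purines would be a pyrimidine run on the other strand, so purines and pyrimidines alternate outside the triplet, and the base beyond each flank is C or T. In printed TTC after A, the 62 probes with C before that A stood at 2.57 with 6-4PP and the 33 with T there at 2.28, a gap as wide as the SD within a context and not tested. In printed TTC after G the values were 0.50 and 0.44.

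Single probes span these ranges. In each class the highest, the lowest and the one nearest the median on the UV arrays of an antibody were named by rule, and those that carry the pattern of flanks and the limits of single probes are shown, with the triplet in capitals.
Printed TTC, highest with both antibodies: gtatgcacacaTTCatatgtatgca
Printed TTC, nearest the median with both: atgcaTTCacgtgcgtatgtatgca
Printed TTC, lowest with CPD: gtatgcgcatgTTCgtatgtatgca
Printed TTC, lowest with 6-4PP: gtgTTCacgcacgtgcatgcgtata
Printed CTT, highest with 6-4PP: gtatgcaCTTacacatatgtatgca
Printed CTT, highest with CPD: gtgtatacacacgtgtatgCTTata
Printed CTT, lowest with 6-4PP: gtatgcgCTTgcgtgtatgtatgca
Printed CTT, lowest with CPD: gtatgcaCTTgtgtatatgtatgca
The probe nearest the TTC median, on 10 spots, read 7774 and 7229 with CPD and UV, and 8599 and 9353 with 6-4PP and UV. Without UV it read 1363 and 1025, and 1695 and 1286. The probe lowest with 6-4PP, also on 10 spots, read 2112 and 2135 with 6-4PP and UV, against 1501 and 1295 without UV, and its UV effect did not pass (adjusted p 0.338, limma). With CPD it read 3479 and 3486 with UV, against 1243 and 1028 without UV, and passed. The triplet of that probe follows G. The probe lowest with CPD also follows G and read 3169 and 2684 with CPD and UV, and 2226 and 2054 with 6-4PP and UV.

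The highest CTT probe with 6-4PP, with A on both sides, read 21776 and 22502 with UV, against 1517 and 1549 without UV, and 10120 and 9169 with CPD and UV. The highest CTT probe with CPD, on 10 spots, read 11328 and 10081 with CPD and UV, and 12970 and 13482 with 6-4PP and UV. The lowest with CPD, with G after the triplet, read 2894 and 3336 with CPD and UV, and 6570 and 7597 with 6-4PP and UV. The lowest with 6-4PP differed between its arrays, 7970 against 3835 with 6-4PP and UV and 4227 against 2290 with CPD and UV. Of the named probes, the brightest TTC probe rests on 1 array. It read 10959 on array 1 and 56415 on array 2 with CPD and UV, and 11869 and 48367 with 6-4PP and UV.

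The complement probes named as highest show the same limit, and 2 of them are printed here with a probe near the median of each class.
Complement TTC, highest with CPD: gtatgcgcGAAtatgtatgtatgca
Complement TTC, nearest the median with CPD: gtatgcatGAAtgtgtatgtatgca
Complement CTT, highest with both antibodies: gtatgcgtAAGtacgtatgtatgca
Complement CTT, nearest the median with CPD: gtatgcgtacAAGcgtatgtatgca
The highest complement TTC probe read 2079 and 45379 with CPD and UV, and 2660 and 19846 with 6-4PP and UV. The highest complement CTT probe read 2650 and 49112, and 4354 and 49776. In both, array 2 was the bright one with both antibodies, and neither UV effect passed with either antibody. The complement TTC probe nearest the median read 2404 and 2169 with CPD and UV, and 3347 and 3201 with 6-4PP and UV. The complement CTT probe nearest the median read 2645 and 2688, and 3667 and 3490.

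The rule also named the 2 members with the largest difference of UV effects toward each antibody, again with the triplet in capitals.
Toward CPD, first: atgcatatgTTCatacgcgtgcgca
Toward CPD, second: gtatgcacGAAcgcgtatgtatgca
Toward 6-4PP, first: gtatgcAAGtgcgcgtatgtatgca
Toward 6-4PP, second: gtatgcatgcgtAAGtatgtatgca
The first, a printed TTC after G, read 4608 and 4658 with CPD and UV against 1202 and 1113 without UV. With 6-4PP it read 2329 and 2884 with UV against 1519 and 2483 without UV, and its difference of UV effects, CPD minus 6-4PP, was 1.59 ± 0.42 on the log2 scale (SE; adjusted p 0.0194, limma). That probe was printed once, and its 6-4PP arrays without UV also lay apart, at levels of 0.02 and 0.99. For the other 3 the difference did not pass (adjusted p 0.305, 0.0573 and 0.284, limma), and each had a pair of replicate arrays far apart. The complement TTC read 7530 on array 2 of 6-4PP without UV, against 1455 on array 1. The first complement CTT read 4750 and 10553 with 6-4PP and UV. The second read 4205 and 1004 with CPD without UV.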

How the data were processed

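Each deposited file holds Alexa 488 intensities of 180880 spots of 1 array on a linear scale, per the file headers. The authors deposited a scanner intensity, a normalised intensity, which equalled the scanner value in all spots, and an adjusted intensity, in which each value is divided by the local median around its spot and scaled to 1 number per array. The program that did so was not given in the sources used here. Spots with a printed sequence numbered 175866, none of the spots was flagged (0), and 89 to 288 spots with a sequence per array were at the scanner ceiling of 65535.

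The adjusted intensity was put on the log2 scale, averaged over the spots of a sequence and centred on the 550 probes without a step. Sequences, classes of at least 10 probes and class differences were fitted with limma 3.58.1 (lmFit and eBayes, 4 group means, all 8 arrays) in R 4.3.3, with Benjamini-Hochberg adjustment per contrast over 122095 sequences, 248 classes, 48 contexts of class and flanks, and 24 differences. Tables were made with Python 3.11.15, numpy 2.4.6, pandas 2.3.3 and scipy 1.17.1. For the CPD comparison of 122095 sequences, tested on simulated data, 20 of 50 changes of 1, 39 of 50 of 2 and 46 of 50 of 3 on the log2 scale were called, and 6 of 121561 unchanged sequences. In the data 70.5% of all sequences were called higher with CPD, far more than were changed in the simulation. The adjustment was thus stricter in the simulation, and its shares are no detection rates for these data. Probes were named by a rule: in each class the highest, the lowest and the one nearest the median on the UV arrays of each antibody, and the 2 with the largest difference between the antibodies in each direction. Members, classes, lists and the rule were chosen with earlier results of these data known. The alternatives are listed in the closing section.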

Additional observations from a re-analysis of the deposited data

Results flagged for a closer look

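The values that follow are differences between the antibodies in the same UV contrast, CPD minus 6-4PP on the log2 scale, and each passed limma's test of the difference itself. All of them rest on 2 arrays per group.

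The UV effect of 3 classes was smaller with CPD than with 6-4PP, by -0.17 in complement TTC, -0.55 in printed CTT and -0.37 in complement CTT. These 3 values change sign when levels are set against the median of all sequences. Complement TTC joined contexts of both signs, with -0.19 and -0.16 after A, and 0.08, which did not pass, and 0.17 after G.

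Among differences between classes, TTC minus CTT differed between the antibodies by 0.61 on the printed strand and 0.20 on the complement strand. Printed minus complement strand differed by 0.24 in TTC and -0.17 in CTT. Under quantile normalization neither strand value passed, and the printed TTC minus CTT value just missed the threshold. The A against G difference before the triplet differed by -0.88 in printed TTC, -0.34 in complement TTC, -0.16 in printed CTT and -0.18 in complement CTT. The printed CTT value had the other sign under quantile normalization. The A against G difference after the triplet differed by 0.13 in printed CTT, with the other sign under quantile normalization, and by -0.12 in complement CTT. The latter did not pass without array 1 of 6-4PP with or without UV or without array 2 of CPD without UV (-0.090, -0.097 and -0.11), nor with the unadjusted intensity (-0.093) or among single-base pairs (-0.082), and was 0.058 under quantile normalization.

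Against the contained steps, TTC minus TT differed by -0.41 on the printed and -0.51 on the complement strand, and TTC minus TC by 1.12 and 0.37. CTT minus TT differed by -1.02 and -0.70, and CTT minus CT by -0.51 and -0.43. Against the thymine triplet, TTC minus TTT differed by -0.99 and -0.82, and CTT minus TTT by -1.60 and -1.01.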

How the results depend on the processing

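The alternatives were the unadjusted intensity, centring on the median of all sequences, quantile normalization, an offset of 100, saturated spots left out, the dimmest 25 percent left out, eBayes with trend and robust prior, a replicate block, arrays of 1 antibody alone, each array left out in turn, class means, the same flanking bases and the place of the triplet on the probe. Pairs that differ in nothing else, members on 2 or more spots, 14 members with unlike UV arrays left out, differences within 1 base before the triplet, the contrast of TTC and CTT in the base after it and a block within the UV condition were added after the data had been seen. The replicate number as a block changed the call of 0 of 186 class effects and differences, and the block within the UV condition of 0 of 62. Counts of single members moved, from 597 to 602 with 6-4PP and from 609 to 613 with CPD under the first, and from 63 to 78 toward CPD and from 157 to 210 toward 6-4PP under the second. With the block the A against G difference before printed TTC was 2.02 for 6-4PP and 1.14 for CPD. No fit on the log2 scale can give more precision than 2 arrays per group, and the cause of each change was not tested.

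Centring on the median of all sequences gave UV effects in complement CTT of -0.62 (6-4PP) and -0.37 (CPD) and in complement TTC of -1.05 and -0.61. CPD minus 6-4PP was then 0.25 in complement CTT, 0.078 in printed CTT, 0.45 in complement TTC and 0.69 in printed TTC. The members called higher were 208 with 6-4PP and 246 with CPD, and for the difference 257 toward CPD and 3 toward 6-4PP.

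Quantile normalization made 31 of 48 class differences smaller by over 1.5 times. For A against G after complement CTT it gave 0.11 (6-4PP), 0.17 (CPD) and 0.058 (CPD minus 6-4PP). Before complement CTT it gave 0.10 with CPD. After printed CTT it gave 0.10 with CPD and -0.058 for the antibody difference, and before it 0.035 with 6-4PP and 0.12 for the antibody difference. CTT minus TTT, printed, was -0.19 with CPD, TTC minus CTT, printed, 0.036 with CPD, and TTC minus TT with 6-4PP 0.13 on the complement and 0.080 on the printed strand. The antibody difference was 0.044 in complement CTT, -0.038 in printed CTT and 0.13 in complement TTC. The base after TTC gave -0.0038 for the antibody difference on the complement strand and -0.015 with CPD on the printed strand. Members called higher were 234 with 6-4PP and 238 with CPD, and for the difference 0 and 0.

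With class means, the base after complement TTC gave 0.062 with 6-4PP and -0.10 for the antibody difference, and after printed TTC 0.019 with 6-4PP and 0.17 with CPD. Complement TTC minus TC was 0.012 and minus TT -0.021 with 6-4PP. The antibody difference was -0.044 in complement TTC and 0.39 in printed TTC. Without the 14 members with unlike arrays, complement TTC minus TC with 6-4PP was 0.083.

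Pairs that differ in nothing else gave 0.030 for the base before complement CTT with CPD, -0.074 (CPD) and -0.011 (antibody difference) for the base after complement TTC, and 0.035 (6-4PP) and 0.15 (CPD) after printed TTC. Within the same flanks these were -0.079 (CPD) and -0.061 (antibody difference) after complement TTC and 0.13 (CPD) after printed TTC. TTC minus CTT, printed, was then -0.0042 with CPD, and complement TTC with 6-4PP was -0.021 against TC and -0.081 against TT. With the triplet nearer the 3′ end the antibody difference of printed TTC was 0.85, and nearer the 5′ end that of complement TTC was -0.077. With the unadjusted intensity the base after complement TTC gave 0.071 (6-4PP), 0.027 (CPD) and -0.044 (difference), and after printed TTC 0.023 (6-4PP). Complement TTC minus TT with 6-4PP was -0.0021, the antibody difference of complement TTC -0.091, and 66 members were called toward 6-4PP.

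Leaving out each array in turn gave, as lowest and highest values, 0.083 and 0.11 for the base before complement CTT with CPD. The base after complement TTC gave -0.051 and 0.013 (6-4PP), -0.044 and 0.015 (CPD), and -0.028 and 0.036 (antibody difference), and after printed TTC -0.065 and 0.031 (6-4PP) and -0.0049 and 0.12 (CPD). Complement TTC minus TC with 6-4PP was 0.056 and 0.14, and after G -0.044 and 0.046. The antibody difference of complement TTC was -0.23 and -0.12, and 73 to 148 members were called toward 6-4PP. The contrast of TTC and CTT in the base after the triplet gave an antibody difference of -0.16 and 0.036 on the printed strand. Under quantile normalization that difference was 0.12 on the printed and -0.062 on the complement strand, and printed TTC minus TTT after G with 6-4PP was -0.033. Complement TTC minus TTT after G with 6-4PP was 0.014 with the unadjusted intensity.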
